A study of Rattus norvegicus with 8 samples.

Results

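Iron handling in the spinal cord after injury was examined through 5 genes: the ferritin chains Fth1 and Ftl1, transferrin (Tf), ceruloplasmin (Cp) and heme oxygenase 1 (Hmox1). They were chosen by their Ensembl rat identifiers, ENSRNOG00000022619 (Fth1), ENSRNOG00000020843 (Ftl1), ENSRNOG00000030625 (Tf), ENSRNOG00000011913 (Cp) and ENSRNOG00000014117 (Hmox1), and all 5 were among the 32883 identifiers of the deposited table. The table gives no gene names, and 0 of its identifiers matched the available RefSeq gene table. The names used here are those supplied with the 5 identifiers, and they could not be checked against the table. Of the 5, 3 (Fth1, Tf and Hmox1) passed the filter on low counts that left 3073 genes for testing.

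The rats were Sprague Dawley, a common outbred stock. Injured cord (4 libraries) was collected 4 days after hemisection, the cutting of the cord on a single side, at thoracic level 9, and uninjured cord (4 libraries) came from animals that had no such injury. By its title the series concerns upper lumbar cord, whereas the sample labels read upper spinal cord, and the design text calls the tissue intact. The sources used here do not state age, sex, any sham surgery or whether each library is a separate animal, so the spread behind every p-value is that among these libraries and may be technical. CEL-Seq2 captures transcripts at their 3' end and marks each molecule with a unique molecular identifier (UMI), so a count estimates molecules and does not grow with transcript length. Injured libraries held 195113 to 320199 UMIs and uninjured libraries 112264 to 221177.

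Iron is both needed and harmful in nervous tissue, because free ferrous iron drives the formation of reactive oxygen species. Hmox1 opens the heme ring and thereby releases iron, and it is a classic stress-induced gene. Cp is a copper-containing ferroxidase that helps iron leave cells, and astrocytes carry a membrane-anchored form. Ferritin, a shell of heavy (Fth1) and light (Ftl1) chains, stores the iron, and transferrin carries it between cells. In the central nervous system Tf is made mainly by oligodendrocytes and the choroid plexus.

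Hmox1 and Cp were higher in every injured than in every uninjured library, and Tf and Fth1 overlapped between groups. Such a separation was found for 7.52% of the 3073 tested genes and for 4.2% of the 12612 genes with a count. Among the 3 genes tested, 1 rose (Hmox1, 3.66-fold) and 0 fell by edgeR's quasi-likelihood test at a Benjamini-Hochberg adjusted p below 0.05. Over all 3073 tested genes 2.28% were called higher and 0.195% lower. At an unadjusted p under 0.05 in the same fit, Hmox1 was again the only one of the 3, and 0 were lower, where 8.49% of all tested genes were higher and 5.86% lower. The median log2 fold change of the 3 was 0.50, which is the value of Fth1, against -0.03 over all tested genes. The filter asks for a count of about 10, at the median depth, in at least 4 libraries. Hmox1 met it through its injured libraries, as uninjured libraries 2 to 4 lay under that level with 5, 2 and 6 UMIs. Its entry to the tested set thus rested on the group where it was high. Fitted by edgeR without the filter, its log2 fold change was 1.97 (adjusted p = 2.58e-05), where 1.78% of 12612 genes were called higher.

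The stretches of sequence before the start sites are shown for Cp and Tf, the only members with a sequence entry. Cp had the largest ratio between groups, and Tf had the highest level and a ratio near 1. A link between these sequences and the change was not tested. The stretches are the 250 bases before the RefSeq start site on the rat build GRCr8, written 5′ to 3′ on the gene's strand. Capitals mark the matches to any of the motifs named below. The Cp stretch is chr2:104368420-104368669 (plus strand) and the Tf stretch chr8:112695377-112695626 (minus strand).
Cp: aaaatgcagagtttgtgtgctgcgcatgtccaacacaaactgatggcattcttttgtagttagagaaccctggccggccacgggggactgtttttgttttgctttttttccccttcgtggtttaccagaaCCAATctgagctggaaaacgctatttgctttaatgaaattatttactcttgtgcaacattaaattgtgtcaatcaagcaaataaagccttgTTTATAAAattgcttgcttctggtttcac
Tf: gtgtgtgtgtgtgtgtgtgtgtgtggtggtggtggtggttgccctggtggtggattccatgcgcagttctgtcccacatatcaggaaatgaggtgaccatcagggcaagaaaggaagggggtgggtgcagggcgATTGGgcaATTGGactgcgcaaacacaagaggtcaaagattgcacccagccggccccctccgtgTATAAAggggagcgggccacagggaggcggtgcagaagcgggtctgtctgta

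Each stretch was searched on both strands for the TATA box (TATAAA), the CCAAT box, the GC box (GGGCGG), the first form of the hypoxia response core (ACGTG), its second form (GCGTG), the antioxidant response core (TGACNNNGC) and the STAT palindrome (TTCNNNGAA). Both genes held the TATA box motif, as did 12.9% of all 33469 stretches of this length in the table. In Cp it began at base -27 from the start site, overlapping a match on the other strand, and in Tf it began at base -52. The CCAAT motif was found in both, on the other strand in Tf, and in 34% of all stretches. The other motifs were not found in either stretch, while among all stretches 30.5% held the GC box, 16.6% and 25.9% the first and second form of the hypoxia response core, 10.1% the antioxidant response core and 7.67% the STAT palindrome. The GC content was 39.6% for Cp and 58.4% for Tf. Hmox1, Fth1 and Ftl1 had no entry in this table.

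Hmox1, the enzyme of heme breakdown, had 69, 59, 27 and 25 UMIs in injured libraries 1 to 4 and 13, 5, 2 and 6 in uninjured libraries 1 to 4. As counts per 1000000 UMIs of the library total (CPM), that was 253, 184, 106 and 128 in injured and 58.8, 44.5, 14.9 and 44.1 in uninjured cord. All 4 injured libraries lay above the highest uninjured one, as for 7.52% of all tested genes. Within each group library 3 was the lowest and library 1 the highest.

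The mean Hmox1 level was 168 ± 65.4 CPM (SD, n = 4) with injury and 40.6 ± 18.4 CPM (SD, n = 4) without it. The log2 fold change was 1.87 (SE 0.37, edgeR adjusted p = 0.0112). Of the 3073 tested genes 21 had a larger log2 fold change, and 19 of these 21 were among the 70 called higher. In bulk tissue a rise of a transcript per cell and a rise in the share of cells that carry it cannot be told apart. With limma-voom on the same genes the call ended (log2 fold change 1.75, adjusted p = 0.0704), whereas it held with each of the 8 libraries left out (edgeR adjusted p from 0.00624 to 0.0474, the highest without uninjured 3).

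The groups carry the same library numbers 1 to 4 in their titles, and same-numbered libraries deviated from their group means together. Between same-numbered libraries Hmox1 was 4.30-fold, 4.14-fold, 7.16-fold and 2.90-fold higher in injured cord for numbers 1 to 4. It was thus higher in 4 of 4 pairs, as were 20.7% of all tested genes. The largest of these ratios, for number 3, rested on only 2 UMIs in the uninjured library. In each pair the injured library was also the deeper one, so each library was thinned to 112264 UMIs in 1 random draw. Hmox1 then had 29, 25, 11 and 14 UMIs in injured and 5, 5, 2 and 3 in uninjured libraries, and the groups stayed apart (log2 fold change 2.25, edgeR adjusted p = 0.00543). The 2.25 is the highest value of all settings for Hmox1. It would differ between draws, and no other draw was made.

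**Figure D1:**
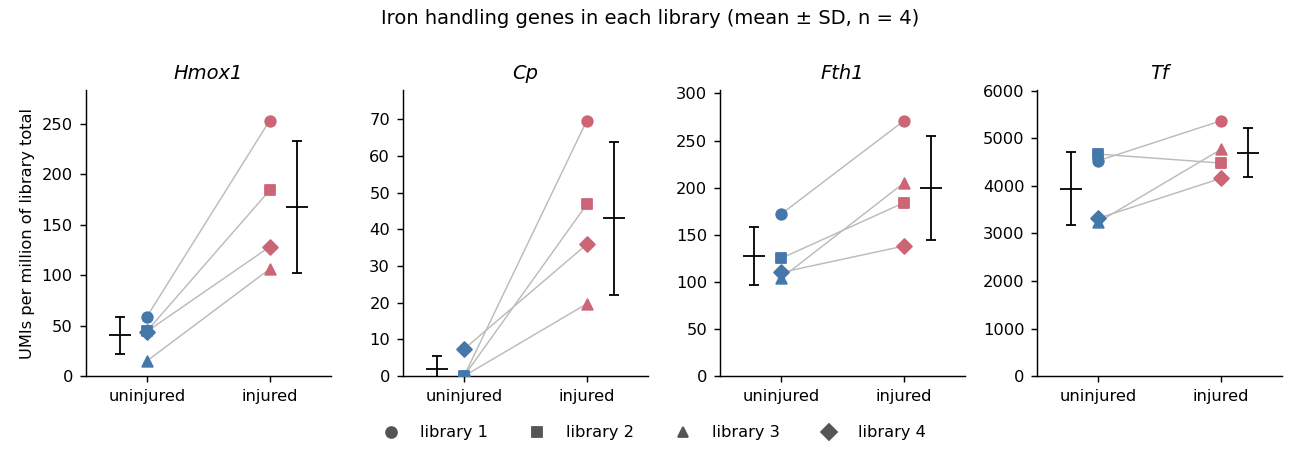
CPM of the library total for Hmox1, Cp, Fth1 and Tf in each of the 8 libraries. Symbols give the library number, grey lines join injured and uninjured libraries of the same number, and black bars show the mean ± SD of 4 libraries. Hmox1 and Cp do not overlap between groups, Fth1 overlaps through injured 4 and uninjured 1, and Tf is lower in the injured library for number 2.

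Cp, the ferroxidase, was the least abundant of the 4 genes that could be compared. It had 19, 15, 5 and 7 UMIs in injured libraries 1 to 4, and 0, 0, 0 and 1 in uninjured libraries 1 to 4. The 4 injured libraries were at 69.6, 46.8, 19.7 and 35.9 CPM and uninjured library 4 at 7.35 CPM. A count of 0 in uninjured libraries 1 to 3 allows up to 13.6, 26.7 and 22.3 CPM, where 3 counts of the total are taken as the limit. The upper limits of uninjured 2 and 3 thus exceed the value of injured 3.

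The groups did not overlap, as for 4.2% of the 12612 genes with a count in any library. Genes without a count in each injured library cannot meet this, and among the 3073 tested genes the share was 7.52%. Mean levels were 43.0 ± 21.0 CPM (SD, n = 4) with injury and 1.84 ± 3.68 CPM (SD, n = 4) without it, a difference with a two-sided exact permutation p = 0.0286, the smallest that 4 against 4 libraries allow. Summed over libraries, 46 of 1041860 UMIs were Cp in injured and 1 of 603934 in uninjured cord. The ratio of these shares was 26.7, with a 95% exact interval from 4.55 to 1080 that covers counting error only. At the injured level, 26.7 Cp UMIs would have been counted in the uninjured libraries together.

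Cp failed the filter on low counts and was not among the 3073 tested genes. In an edgeR fit of all 12612 genes with a count its log2 fold change was 4.27 (SE 0.81, adjusted p = 4.17e-05), where 1.78% of genes were called higher. With the library number as a block in that fit, the log2 fold change was 4.37 (edgeR adjusted p = 0.00147, 2.03% of genes called higher), but the call ended without pair 1 (adjusted p = 0.273), pair 2 (adjusted p = 0.102) or pair 3 (adjusted p = 0.0752). With 1 library left out and no block, the call held throughout at log2 fold changes of 3.76 to 6.27 (edgeR adjusted p up to 0.0138). The 6.27 came without uninjured 4, which holds the only uninjured UMI, and with the block and without pair 4 the value was 6.45 (adjusted p = 0.0117). The fitted values depend on how a count of 0 is treated and set no bound on the fold. Thinned to equal depth in the same single draw, Cp had 7, 3, 3 and 5 UMIs in injured and 0, 0, 0 and 1 in uninjured libraries. The injured libraries were higher in 4 of 4 pairs (exact paired permutation p = 0.125, the smallest that 4 pairs allow). The same held for 11.4% of genes with a count and for 20.7% of the 3073 tested genes.

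Fth1, the heavy ferritin chain, which oxidises iron before storage, was counted at 74, 59, 52 and 27 UMIs in injured libraries 1 to 4 and 38, 14, 14 and 15 in uninjured libraries 1 to 4. Scaled to library totals, the injured libraries were at 271, 184, 205 and 138 CPM and the uninjured ones at 172, 125, 104 and 110 CPM. Of the injured libraries 3 lay above every uninjured one, and injured 4 lay below uninjured 1.

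The mean Fth1 level was 200.0 ± 55.2 CPM (SD, n = 4) with injury and 128 ± 30.6 CPM (SD, n = 4) without it. The fitted log2 fold change was 0.50 (SE 0.26), with an edgeR adjusted p = 0.401. Of all tested genes 13.5% had a larger log2 fold change. Between same-numbered libraries Fth1 was 1.58-fold, 1.48-fold, 1.97-fold and 1.25-fold higher in injured cord. With the block its log2 fold change was 0.52 (SE 0.21) with an unadjusted p of 0.0218, and the edgeR adjusted p of 0.124 did not pass the threshold. In that fit, 6.77% of all tested genes were called higher and 4.56% lower. At an unadjusted p under 0.05, 374 of the 3073 genes were higher and 367 lower in the same fit.

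Ftl1, the light chain that promotes the mineralisation of iron inside the shell, was listed with 1 UMI in injured library 2 and 0 in the other 7 libraries. In these 7 a count of 0 allows between 11.0 and 26.7 CPM. With 1 UMI in all, no test could tell the groups apart for Ftl1, and no test result is given. Ferritin transcripts are known to be abundant in nervous tissue, yet Fth1 ranked 1049th and Ftl1 12449th by mean level among the 12612 genes with a count. RefSeq lists 5 pseudogenes named after Fth1 and 14 named after Ftl1, and it also lists 1 like gene of Fth1 and 7 of Ftl1. It lists 0 pseudogenes named after Tf, Cp or Hmox1. The sources used here do not state how reads that match several of these copies were counted. The ferritin values are therefore uncertain, as part of the reads of these genes may stand under other identifiers or under none, and the part of this in the result was not tested.

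Tf, the iron carrier, was the most abundant of the 5 and ranked 22nd among the 12612 genes. It had 1465, 1434, 1210 and 811 UMIs in injured libraries 1 to 4 and 1002, 524, 436 and 452 in uninjured libraries 1 to 4. Scaled to the library total, the injured libraries were at 5370, 4480, 4770 and 4160 CPM and the uninjured ones at 4530, 4670, 3240 and 3320 CPM. Uninjured libraries 1 and 2 lay within the range of the injured libraries, and uninjured 3 and 4 lay below it.

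Mean Tf levels were 4690 ± 515 CPM (SD, n = 4) with injury and 3940 ± 763 CPM (SD, n = 4) without it. The fitted log2 fold change was 0.13 (SE 0.20), with an edgeR adjusted p = 0.838. The injured library was higher for numbers 1, 3 and 4 (1.19-fold, 1.47-fold and 1.25-fold) and lower for number 2 (a ratio of 0.959). The highest counts of the table lie just under the number of different tags that 6 bases can form. The highest count of Tf was 35.8% of that number, so no member lay near it. Correction for molecules that share a tag would raise it from 1465 to 1813, and for the other 4 genes by at most 1 UMI. With that correction the log2 fold change of Tf was 0.26 (SE 0.21, edgeR adjusted p = 0.644). Scaling to library totals alone, under which the median over all tested genes went from -0.03 to 0.09 (log2 fold change), gave 0.25 (SE 0.20) for Tf and 0.62 (SE 0.28) for Fth1, neither past the threshold (edgeR adjusted p = 0.656 and 0.319).

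**Figure D2:**
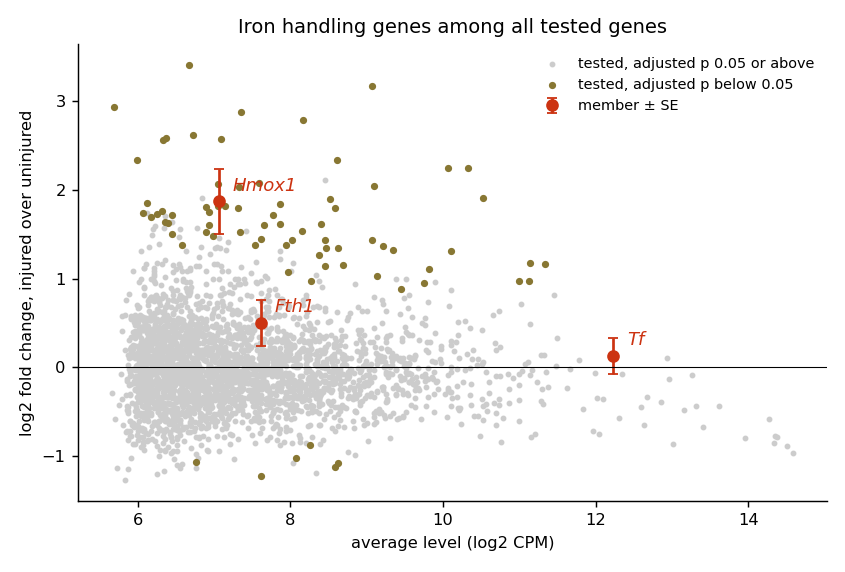
Log2 fold change of injured over uninjured cord against the average level (log2 CPM) for the 3073 tested genes. Red points with bars are Hmox1, Fth1 and Tf ± SE, brown points are the other genes with an edgeR adjusted p below 0.05, and grey points are the rest. Hmox1 (1.87) lies among the called genes, whereas Fth1 (0.50) and Tf (0.13) lie among those that did not pass.

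The order of mean levels was Tf, Fth1, Hmox1, Cp and Ftl1 in injured cord. In uninjured cord it was the same down to Cp, with Ftl1 at 0. In injured cord the levels of the neighbours Fth1 (138 to 271 CPM) and Hmox1 (106 to 253 CPM) overlapped, and in injured library 2 both were counted at 59 UMIs. In uninjured cord Fth1 (104 to 172 CPM) and Hmox1 (14.9 to 58.8 CPM) did not overlap. As the Fth1 values are uncertain, as stated above, its place beside Hmox1 holds for the counted UMIs only. Tf was the highest of the 5 in each of the 8 libraries.

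Relative to its mean, Tf varied least between libraries, with an SD of 11.0% of the mean in injured and 19.4% in uninjured cord, where counting error alone gives 2.9% and 4.24%. For Fth1 the SD was 27.6% of the mean in injured and 24.0% in uninjured cord, with counting errors of 14.1% and 23.5%. For Hmox1 it was 39.0% and 45.5%, with counting errors of 15.4% and 41.7%. For Cp in injured cord it was 48.7%, with a counting error of 30.5%. In uninjured cord the counts of Fth1 and Hmox1 were thus low enough that counting error was nearly as large as the whole spread.

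Ratios between genes of the same library do not depend on library scaling. They are given without correction for molecules that share a tag, which would raise Tf most where its count is highest and so lower the ratios to Tf. Those with Fth1 compare counted UMIs only, since the Fth1 count may miss part of its transcripts, as stated above. The Hmox1 count was 93.2%, 51.9% and 92.6% of the Fth1 count in injured libraries 1, 3 and 4 and equal to it in injured 2. In uninjured libraries 1 to 4 it was 34.2%, 35.7%, 14.3% and 40.0%. The groups did not overlap, and library 3 was the lowest in each. As a share of the Tf count, Hmox1 was at 4.71%, 4.11%, 2.23% and 3.08% in injured and at 1.30%, 0.954%, 0.459% and 1.33% in uninjured libraries, again without overlap.

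Fth1 as a share of the Tf count was 5.05%, 4.11%, 4.30% and 3.33% in injured and 3.79%, 2.67%, 3.21% and 3.32% in uninjured libraries, with overlap between injured 4 and uninjured 1. These 3 ratios were chosen after their values were seen and carry no test. The log2 ratio of Cp to Tf, with 0.5 added to each count, was -6.83 ± 0.67 in injured and -9.75 ± 1.13 in uninjured cord (SD, n = 4). The difference of 2.93 had a two-sided exact permutation p = 0.0286, and the paired exact permutation p was 0.125. With correction for molecules that share a tag the difference was 2.79. In uninjured libraries 1 to 3, without a Cp count, this ratio is set by the Tf count and the added value.

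**Figure D3:**
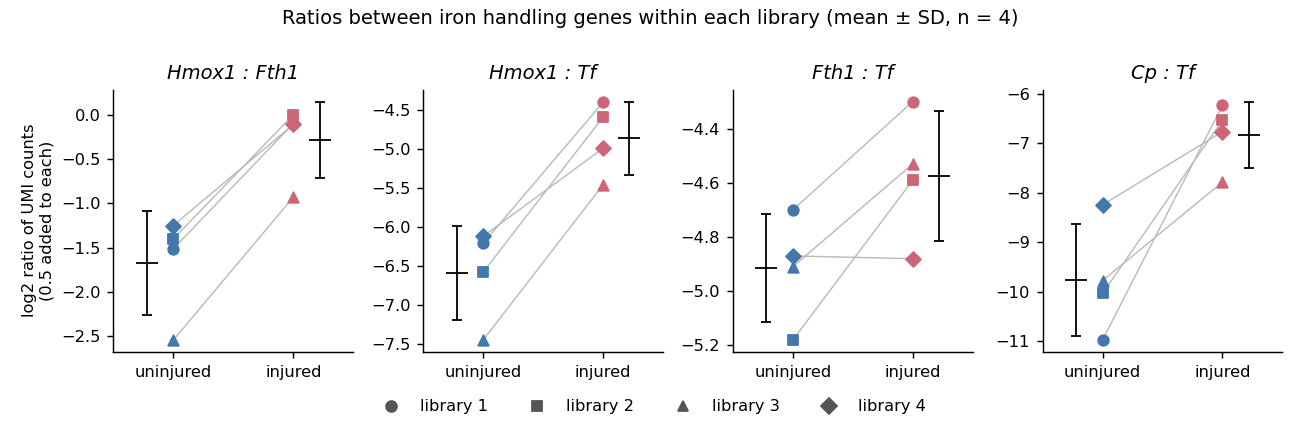
Log2 ratios of UMI counts between Hmox1 and Fth1, Hmox1 and Tf, Fth1 and Tf, and Cp and Tf in each library, with 0.5 added to each count. Symbols give the library number, grey lines join libraries of the same number and black bars show the mean ± SD of 4 libraries. The Hmox1 and Cp ratios are higher in every injured library, and the ratio of Fth1 to Tf overlaps between groups.

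Genes with a like pattern were sought among the 3070 other tested genes by Pearson's r of log2 CPM over the 8 libraries, which share the difference between groups and the differences of depth. For Hmox1 the closest gene had r = 0.99 (log2 fold change 2.07, SE 0.41). A gene chosen for so close a pattern shares the difference of Hmox1 between groups, so its own difference is no separate result. In all, 34 genes had an r over 0.9 with Hmox1, against 4 for Fth1 and 4 for Tf. These counts were not separated from the size of each gene's difference between groups. With 8 libraries, the closest of 3070 genes can reach a high r without any link. The number that chance alone gives was not worked out. The gene closest to Fth1 was ENSRNOG00000000513 (r = 0.917), with 144 ± 48.6 CPM after injury and 80.8 ± 23.9 CPM without it (SD, n = 4, edgeR adjusted p = 0.304). The gene closest to Tf was ENSRNOG00000007134 (r = 0.96), with 80.5 ± 13.7 CPM after injury and 57.7 ± 24.0 CPM without it (SD, n = 4, edgeR adjusted p = 0.691). Neither identifier is given a name by the files. For the same reason other genes of iron import, export and heme transport, and markers of the cell types and of blood, were not analysed here.

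**Figure D4:**
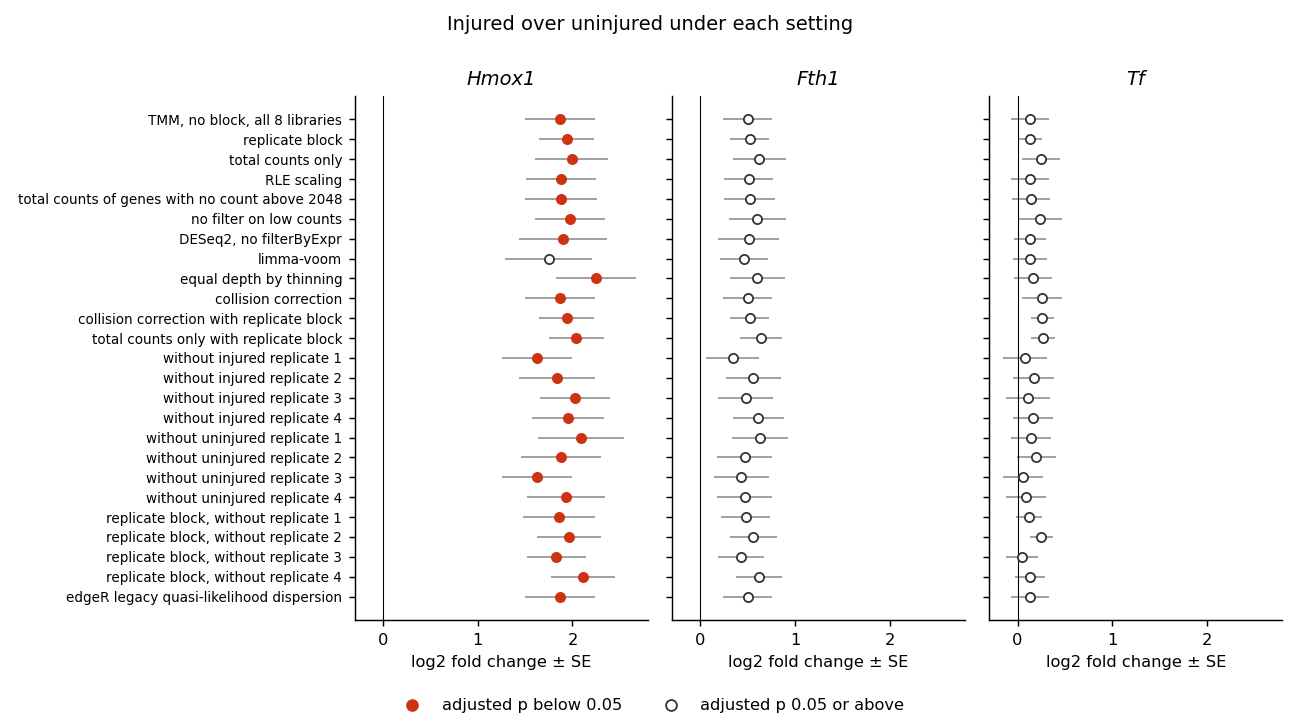
Log2 fold change ± SE of Hmox1, Fth1 and Tf, injured over uninjured, under each processing setting. Filled points have an adjusted p below 0.05 and open points do not. Hmox1 stays between 1.63 and 2.25 and is open only for limma-voom, Fth1 stays between 0.34 and 0.64 and Tf between 0.05 and 0.27, open throughout.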

How the data were processed

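Values in the deposited table are raw UMI counts, 1 row per Ensembl gene, with no normalization by the authors visible in the values. The build Rnor_6.0, HTSeq 0.6.0 and HISAT2 2.0.4 are named per the submitters' processing notes. The sources used here do not state the treatment of reads with several matches, the use of strand or the tag length.

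Genes were filtered with filterByExpr (minimum count 10, minimum total 15), scaled by TMM and tested in edgeR 4.0.16 (R 4.3.3, glmQLFit with legacy=FALSE, glmQLFTest) over all 8 libraries, with Benjamini-Hochberg adjustment over all tested genes. SEs were obtained as the absolute log2 fold change over the root of the F statistic. Printed CPM values use library totals, while the tests use TMM. Cp and Ftl1, which failed the filter, were compared by a two-sided exact permutation test, and its result is given for Cp only. Alternatives used DESeq2 1.42.0 and limma 3.58.1. The filtered fits with and without block were also run on counts simulated from their own means and dispersions. The simulated counts held no effect of library number and no genes below the filter. They therefore check neither the adjustment for library number nor the fit without the filter.

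The tests used no block unless stated. Fits with the library number as a block are given beside them, because each correlation of deviations from the group mean between same-number libraries over the 3073 genes was over 0.1 (0.297 to 0.423, other pairs -0.311 to 0.241). The numbers come from the titles, and no label calls the libraries paired. The 5 genes, the lists and the tests were chosen with earlier results of these data known. The genes named are these 5 and, for each tested one, the gene with the most similar pattern, of which at most 2 identifiers are printed. Promoter stretches came from RefSeq, matched by symbol (2 of 5).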

Additional observations from a re-analysis of the deposited data

Results flagged for a closer look

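Of 9 sets of 4 values examined for a library that stands apart, 2 held such a library, each through a single UMI. Cp was at 7.35 CPM in uninjured library 4 and at 0 in each of uninjured 1 to 3. Ftl1 was at 3.12 CPM in injured library 2 and at 0 in the other injured libraries. Where the other values are all 0, any count stands apart by this measure, so the share of about 1 in 20 sets that chance gives does not apply to them.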

How the results depend on the processing

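The log2 fold change of Hmox1 kept its call in 23 of 24 alternatives (1.63 to 2.25) and lost it with limma-voom (1.75, adjusted p = 0.0704). Fth1 (0.34 to 0.64, adjusted p from 0.0587 to 0.71) and Tf (0.05 to 0.27, adjusted p from 0.169 to 0.954) kept their direction and stayed above the threshold in all 24. The replicate block changed no call of these 3 genes. Of the 24, 1 (the legacy dispersion of edgeR) was added after seeing the data and changed no call of theirs. For Cp the log2 ratio of summed shares was 4.74, and 2.78 (a lower bound, against 3 counts over the group) to 4.97 with 1 library left out, where 4 against 3 libraries cannot go below an exact p of 0.0571. The paired exact test of the same 4.74 cannot go below 0.125. In edgeR without the filter (4.27), the log2 fold change of Cp with the replicate block was 3.40, 4.14 and 4.34 without pairs 1, 2 and 3, past the threshold in none of these fits with fewer libraries. It stayed past the threshold in the other 14 alternatives to that fit, up to 6.45 with the block and without pair 4. All 17 were added after seeing the data. DESeq2 gave Cp an unadjusted p of 0.00035 and no adjusted p. The log2 ratio of Cp to Tf differed by 2.52 to 3.43 with 1 library left out (exact p = 0.0571 each) and by 2.93 in the paired test with the replicate block (exact p = 0.125).

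Against 70 higher and 6 lower genes, edgeR called 208 and 140 with the replicate block, 225 and 13 without the filter, 200 and 129 with collision correction and the block, and 284 and 65 with total counts and the block. Total counts gave 105 higher and 3 lower genes, equal depth 52 and 3, and DESeq2 83 and 19, of which only the lower counts moved by over 1.5 times. With each library left out in turn, between 38 and 115 genes were called higher and between 0 and 15 lower. The 0, without injured 1, stands beside 139 lower genes at an unadjusted p under 0.05, 0 by limma-voom and 3 by DESeq2. With the block and without pairs 1 to 4, it called 95, 158, 144 and 318 higher and 47, 91, 63 and 202 lower genes.

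No value is given for Ftl1 or for the ratio of Fth1 to Ftl1, since Ftl1 had 1 UMI. None could be given for Cp under the alternatives that keep the filter, nor for the ratio of Cp to Tf without an added count. Low counts limit the precision for Cp, with 47 UMIs in all, and for Hmox1 in uninjured libraries, with 2 to 13.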
